A study of Homo sapiens with 15 samples.

Results

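K562 nuclei digested with 1 U of P1 endonuclease were compared with K562 nuclei digested with 0.1 U, without reference to the untreated samples. The 6 samples are the 3 replicates of each amount, out of 15 samples in the series, and were chosen by their labelled amount of enzyme. K562 is an established human chronic myelogenous leukemia line of erythroid character, and all 6 samples share the same line, formaldehyde crosslinking and digestion at 37 °C for 10 minutes. The assay, SSiNGLe-P1, records the positions of 3′-OH ends of DNA, called termini here, each with the strand that is broken. A site is a distinct position and strand holding at least 1 terminus. The replicates are described as biological, but no genotype, culture age or batch separates them further, and mitochondria were not purified but came along with the nuclei.

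P1 is a zinc-dependent nuclease that cuts single-stranded DNA and RNA and leaves 3′-OH ends, so that a library holds the breaks made by the enzyme together with the 3′-OH ends the cells already had. Because P1 can go on to degrade a single-stranded stretch to nucleotides, the amount of enzyme can raise or lower the number of ends that remain to be mapped. The circular mitochondrial genome has a heavy (H) and a light (L) strand and a non-coding control region between the tRNA genes MT-TP and MT-TF. Within it, an abortive H-strand product, the 7S DNA, pairs with the L strand and displaces the parental H strand, forming the D-loop. In the strand-displacement model of replication the new H strand is made first and the parental H strand is exposed as single strand until L-strand synthesis, which begins at the origin OL, covers it. The genome outside the control region was divided into 4 arcs by the study's coordinates: Q1 and then Q2 run back from the MT-TP side of the control region, and Q3 and then Q4, which holds most of the rRNA genes, run on to MT-TF. The study sets its border of Q2 and Q3 at OL, and by its coordinates the border falls within MT-ND2, while OL is known to lie nearby in the tRNA cluster between MT-TN and MT-TC. In that model the parental H strand is exposed longer in Q1 than in Q2, and longer in Q3 than in Q4.

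The libraries held between 298951 and 692989 mitochondrial termini and between 2258825 and 3064451 nuclear termini, and the 1 U libraries were the smaller on both counts, with 298951 to 359949 mitochondrial termini against 382515 to 692989 at 0.1 U. Comparisons of single values used the ratio of 1 U to 0.1 U within each replicate number, summarised by its geometric mean and called the fold below. Their exact sign-flip permutation test over 3 pairs cannot give a two-sided p below 0.25, and the exact permutation test over the 6 samples without pairing cannot go below 0.1, so no single value can pass a threshold of 0.05 and each is described by its values and by whether the groups overlap. Only the tests fitted across many bins, genes or positions can make calls, at a Benjamini-Hochberg adjusted p of 0.05.

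The main difference between both amounts of P1 was a smaller share of 1 sharp cluster of H-strand termini in the control region. Its highest position was 16107 of the mitochondrial genome used by the study, which is where the 3′ ends of the 7S DNA are known to lie. Within 10 bases of it, the H strand held 56.0%, 63.7% and 56.3% of all mitochondrial termini in replicates 1, 2 and 3 of 0.1 U, and 22.1%, 21.7% and 19.5% in those of 1 U. Every 0.1 U sample was above every 1 U sample by more than the spread within either group (58.6% ± 4.4 against 21.1% ± 1.4, SD, n = 3 each), a fold of 0.360 between 0.341 and 0.395 in single pairs. Counted per 1000 nuclear termini, a total that is independent of the other mitochondrial termini, the cluster gave 69.8, 125 and 130 termini at 0.1 U and 28.9, 34.6 and 24.6 at 1 U, a fold of 0.278. The groups did not overlap on this scale either, although the 0.1 U samples differed among themselves more than the 1 U samples did. The exact sign-flip p was 0.25, the smallest possible, for both scales.

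**Figure D1:**
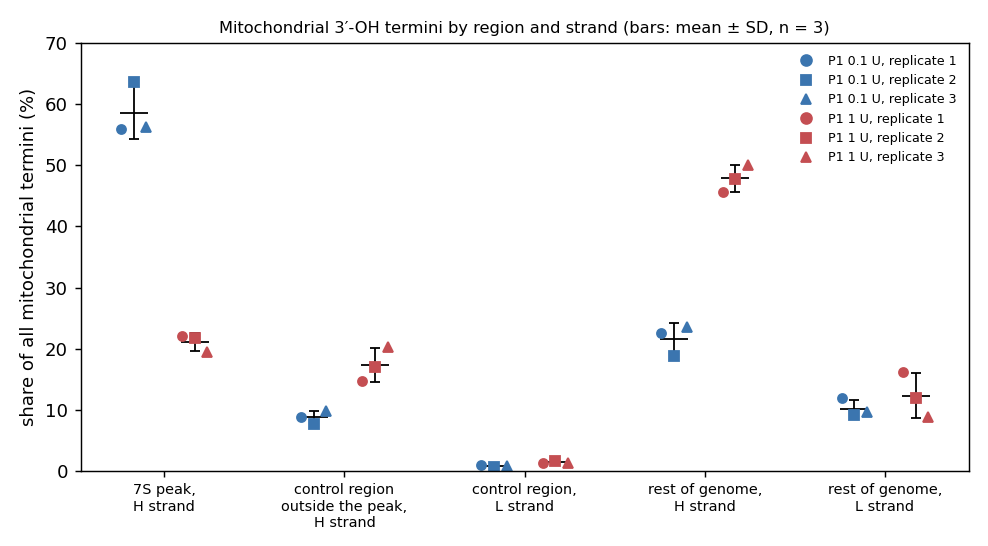
Share of all mitochondrial termini (%) in each region and strand, 1 point per sample, with the mean and SD of 3 replicates. The 7S peak held 56.0 to 63.7% at 0.1 U and 19.5 to 22.1% at 1 U, while H-strand termini of the rest of the genome held 18.9 to 23.5% and 45.7 to 50.1%.

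The decrease was not equal over the cluster. In a quasi-likelihood test (edgeR) on 4966 positions and strands, 42 positions had a lower share of all mitochondrial termini at 1 U, 0.846% of those tested, and 2912 a higher share, 58.6%. With termini outside the control region as the total, 853 (17.2%) were lower and 905 (18.2%) higher, and with DESeq2 264 and 278, so the split depends on the total. Of the 42, 32 lay on the H strand of the control region. The 10 positions with the greatest decrease were all on the control-region H strand, and 6 of them were the consecutive positions 16105 to 16110. Position 16107 alone held 29.8%, 33.6% and 30.8% of all termini at 0.1 U and 11.3%, 11.2% and 10.1% at 1 U. Its share fell by 1.53 on the log2 scale (SE 0.12, edgeR adjusted p = 2.8e-12). The next position, 16108, held 13.9%, 15.8% and 13.7% at 0.1 U and 5.15%, 4.83% and 4.26% at 1 U. On the log2 scale, position 16105 fell by 1.84, 16106 by 1.70, 16109 by 1.73 and 16110 by 1.25, with edgeR adjusted p between 2.6e-12 and 7.2e-09. Differences between positions were not tested. Position 62, on the far side of the control region, was the only one of the 10 before MT-TF and fell by 1.43, from 47, 83 and 94 termini to 19, 21 and 12.

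A few bases away the pattern was mixed. Positions 16111 and 16112 had folds of 0.851 and 0.862, and position 16115 a fold of 1.33. The 7 positions from 16116 to 16122 were again lower at 1 U, with folds from 0.490 to 0.623 without overlap, and all 7 were among the 42. At 16126 the H strand held 0.119%, 0.122% and 0.152% of all termini at 0.1 U and 0.390%, 0.540% and 0.616% at 1 U, a fold of 3.88 with no overlap of the groups. Position 16128 was also higher, with a fold of 1.53. Termini at the peak of the cluster and 9 to 15 bases toward higher positions thus took a smaller share at 1 U. Those at single positions 19 and 21 bases toward higher positions took a larger one.

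**Figure D2:**
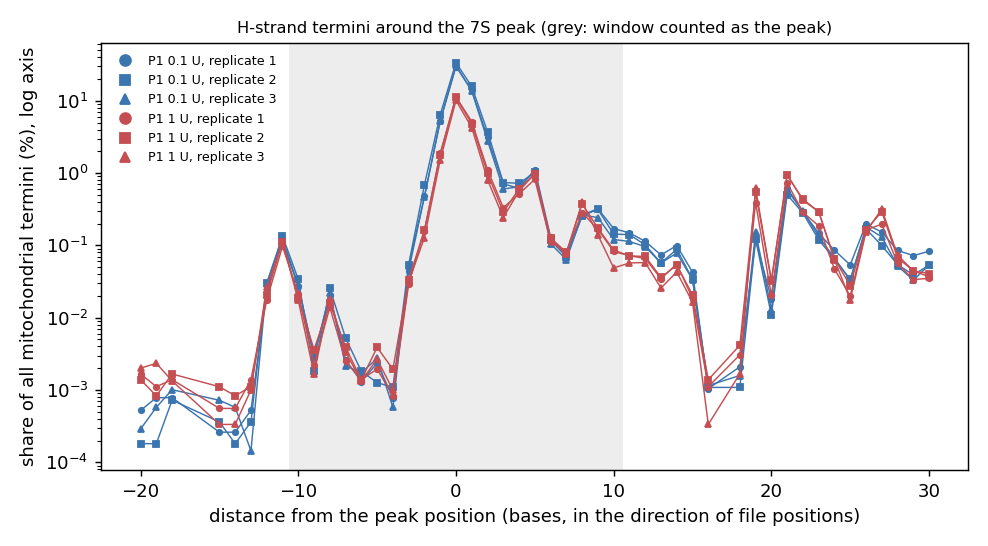
Share of all mitochondrial termini (%, log axis) at each H-strand position against its distance in bases from the peak position, 1 line per sample; positions without termini are not drawn. The 1 U lines run below the 0.1 U lines at the peak. At 19 bases toward higher positions the 1 U lines run above, with a fold of 3.88.

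Outside the cluster, the control-region H strand held a larger share at 1 U. It took 8.76%, 7.72% and 9.81% of all mitochondrial termini at 0.1 U and 14.7%, 17.0% and 20.3% at 1 U, a fold of 1.97 without overlap (exact sign-flip p = 0.25). Per 1000 nuclear termini the values were 10.9, 15.2 and 22.7 at 0.1 U and 19.2, 27.1 and 25.7 at 1 U, which overlapped, with a fold of 1.53. The cluster thus made up 86.5%, 89.2% and 85.2% of control-region H-strand termini at 0.1 U and 60.04%, 56.1% and 48.9% at 1 U.

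In 50-base windows the larger shares lay in particular stretches. The H strand had folds of 3.38, 3.36 and 3.37 in the 3 windows from 16225 to 16374, and of 2.17 to 2.27 in the 3 windows that follow. On the MT-TF side, which holds the conserved sequence blocks and the H-strand replication origin, the largest folds were 4.62 at 251 to 300, 4.07 at 151 to 200 and 3.81 at 201 to 250. At 151 to 200 the H strand held 0.0695%, 0.0703% and 0.124% of all termini at 0.1 U and 0.223%, 0.399% and 0.458% at 1 U. Both strands were higher there, with an L-strand fold of 4.67, whereas at 251 to 300 the L-strand fold was 1.01 and its groups overlapped. The L strand of the whole control region held little in every sample, 0.682 to 0.870% at 0.1 U and 1.24 to 1.54% at 1 U.

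When each position was counted once at an equal number of control-region termini, more positions held termini at 1 U. That number includes the cluster, whose smaller share at 1 U by itself leaves more termini for other positions. Coverage without the cluster was not tested. After every library was reduced at random to the same number of control-region termini, 122670, the control region held 1308, 1198 and 1293 sites at 0.1 U and 1690, 1710 and 1654 at 1 U. H-strand sites had a fold of 1.24 and L-strand sites a fold of 1.51, so that the H/L ratio of sites was lower at 1 U, at 1.502, 1.51 and 1.63 against 1.74, 1.96 and 1.95. Without the reduction to equal depth this ratio was 1.46, 1.46 and 1.63 at 1 U and 1.5, 1.49 and 1.42 at 0.1 U, which overlapped. With the cluster included, the termini were also more evenly spread. The exponential of their Shannon entropy, which is the number of equally used positions that would be as diverse, was 11.3, 9.31 and 11.9 in the control region at 0.1 U and 58.2, 69.997 and 88.7 at 1 U.

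Over the whole mitochondrial genome at an equal depth of 298951 termini, the 10 highest positions held 56.3%, 64.1% and 56.8% of termini at 0.1 U and 23.003%, 23.2% and 21.1% at 1 U. The number of sites was 19200, 17446 and 18099 at 0.1 U and 22668, 21506 and 20154 at 1 U, a fold of 1.17 without overlap. This depth includes the cluster too. Outside the control region, at an equal 131666 termini, the fold was instead 0.954 and the groups overlapped. There, H-strand sites numbered 11087, 10857 and 10885 at 0.1 U and 11461, 11394 and 11113 at 1 U, while L-strand sites numbered 8198, 7976 and 7474 at 0.1 U and 7520, 6663 and 5788 at 1 U, so the H-strand counts were slightly higher at 1 U and the L-strand counts overlapped, with a fold of 0.840.

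Outside the control region, it was the H strand that held more of the termini at 1 U. It took 22.6%, 18.9% and 23.5% of all mitochondrial termini at 0.1 U and 45.7%, 47.8% and 50.1% at 1 U, a fold of 2.22 without overlap. The L strand held 11.8%, 9.05% and 9.62% at 0.1 U and 16.2%, 11.9% and 8.83% at 1 U, which overlapped, with a fold of 1.18. Per 1000 nuclear termini the H strand had a fold of 1.72, from 28.2, 37.1 and 54.4 to 59.8, 76.2 and 63.3, and the L strand a fold of 0.914 with overlapping values. All mitochondrial termini together numbered 125, 197 and 231 per 1000 nuclear termini at 0.1 U and 131, 159 and 126 at 1 U, which overlapped.

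The H/L ratio outside the control region does not depend on any total. It was 1.91, 2.08 and 2.44 at 0.1 U and 2.83, 4.02 and 5.68 at 1 U, a fold of 1.88 between 1.48 and 2.32 in single pairs. All 1 U samples lay above all 0.1 U samples, but the 1 U samples were spread more widely than those of 0.1 U, and replicate 3 was the highest at both amounts. Without the 10 highest positions the fold was 1.89. Counted over sites instead of termini, the ratio was 1.35, 1.34 and 1.37 at 0.1 U and 1.40, 1.57 and 1.82 at 1 U, a fold of 1.17. At 1 U there were 12.7, 13.5 and 12.6 termini per H site and 6.33, 5.28 and 4.02 per L site, against 7.79, 9.18 and 13.0 and 5.52, 5.91 and 7.29 at 0.1 U, values that overlap for each strand.

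The 4 arcs differed in this ratio. In Q1, which carries MT-ND5, MT-ND6 and MT-CYB, it was 2.41, 2.68 and 3.17 at 0.1 U and 3.75, 5.31 and 7.83 at 1 U, a fold of 1.97. In Q2, which carries the cytochrome oxidase and ATP synthase genes, it was 1.65, 1.75 and 2.13 at 0.1 U and 2.31, 3.29 and 4.49 at 1 U, a fold of 1.77. In Q3, which carries MT-ND1 and most of MT-ND2, it was 2.24, 2.44 and 2.91 at 0.1 U and 3.27, 5.01 and 7.64 at 1 U, a fold of 1.99. Q4 was the lowest at both amounts, with 1.02, 1.10 and 1.00 at 0.1 U and 1.25, 1.60 and 1.55 at 1 U, a fold of 1.40. The groups did not overlap in any of the 4 arcs, and the order Q1, Q3, Q2, Q4 held in every sample of both amounts. Differences between the arcs' folds were not tested.

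**Figure D3:**
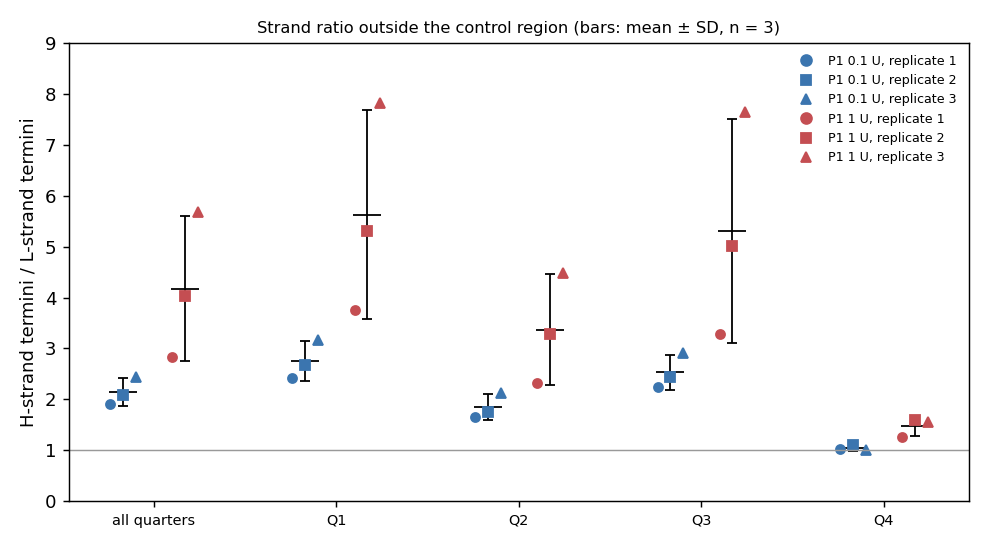
Ratio of H-strand to L-strand termini outside the control region and in each of its 4 arcs, 1 point per sample, with the mean and SD of 3 replicates and a line at 1. Q4 was nearest to 1 at both amounts, and in Q1 the 1 U samples ranged from 3.75 to 7.83.

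In counts of termini, the change in H/L ratio was spread along the genome. In 200 bp bins, a test of the strand ratio within each bin, which no scaling between samples can alter, called 72 of 83 bins (86.7%), 71 (85.5%) higher at 1 U and 1 (1.2%) lower. On unique sites the same test called 0 of 83 (17 at an unadjusted edgeR p under 0.05). Its median log2 change was 0.23, against 0.86 on termini. A bin of 200 bp can hold at most 200 sites per strand. At 0.1 U most H-strand positions of the genome already held termini, with 12023, 12299 and 13510 H-strand sites. H-strand sites therefore had less room to rise than H-strand termini, while L-strand sites were free to fall. How far this limited the test on sites was not tested, so the change in ratio is given for termini only. All 12 bins of Q3 were called higher, as were 24 of 27 in Q1, 24 of 27 in Q2 and 8 of 11 in Q4, with median log2 changes of 1.00, 0.97, 0.83 and 0.51. The largest change was in the bin from 13801 to 14000, within MT-ND5, where the ratio was 1.53, 1.74 and 1.79 at 0.1 U and 3.72, 5.17 and 6.80 at 1 U (log2 change 1.59, SE 0.27, edgeR adjusted p = 6.3e-07). Next came the bin from 201 in the control region (1.40), that from 15601 in MT-CYB (1.31), that from 14201 in MT-ND6 (1.26) and that from 5001 in MT-ND2 (1.23). The bin from 16001, which holds the 7S cluster, was the only one called lower, from 389, 525 and 429 to 117, 110 and 112. The calls depended on replicate 2: with that pair left out, 2 bins were called, against 77 without replicate 1 and 42 without replicate 3.

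When each strand of each bin was tested as a share of all mitochondrial termini, 82 of 166 (49.4%) were higher and 1 (0.602%) lower at 1 U. Of the higher ones, 78 were on the H strand and 4 on the L strand, all 4 in the control region. Since the 7S cluster is part of that total, its decrease raises every other share. With termini outside the control region as the total, 43 (25.9%) were higher and 88 (53%) lower, and 78 of the 83 L-strand bins were among the lower. On this scale 20 of 27 H-strand bins of Q1 and 8 of 12 of Q3 were higher, against 9 of 27 in Q2 and 0 of 11 in Q4. With nuclear termini as the total, 15 were higher and 1 lower, so most calls made with either other total ended. The H-strand bins with the largest log2 changes in share of all termini were those from 201 (1.75), 16201 (1.70), 5001 (1.62), 13801 (1.61) and 15601 (1.60).

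The genes showed the same contrast of strands. Of 74 tests, 37 genes on both strands, 37 (50%) were higher at 1 U as a share of all mitochondrial termini and none was lower. Of the H-strand tests 36 of 37 were higher, with a median log2 change of 1.09, and of the L-strand tests 1 of 37, MT-ND4L, with a median of 0.24. As a share of termini outside the control region, 17 (23%) were higher, all on the H strand, and 34 (45.9%) lower, 30 of them on the L strand.

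Among the H-strand genes, those of complex I, the NADH dehydrogenase, had a median log2 change of 1.27, and all 7 were higher with either total except MT-ND3, which was lower as a share of termini outside the control region. MT-ND6, the only protein gene that uses the other coding strand, had the largest change among the protein genes (1.44, SE 0.18), from 89.4, 69.6 and 88.6 termini per 10000 mitochondrial termini to 203, 213 and 255. MT-CYB, the complex III subunit, went from 255, 217 and 282 to 592, 577 and 652 per 10000 (1.28). The complex V genes MT-ATP6 and MT-ATP8 changed by 1.21 and 1.34, and the complex IV genes MT-CO1, MT-CO2 and MT-CO3 by 0.91, 1.00 and 0.96. Relative to the total outside the control region, the 3 complex IV genes were near 0 and were not called.

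On the H strand, the rRNA genes, which lie mostly in Q4, changed less than every protein gene except MT-ND3 (0.62). The H strand of MT-RNR1, the 12S rRNA, held 71.5, 57.1 and 56.5 termini per 10000 at 0.1 U and 102, 94.9 and 69.4 at 1 U (log2 change 0.52, SE 0.18, edgeR adjusted p = 0.0080). With termini outside the control region as the total, it was lower, by 0.41 on the log2 scale. MT-RNR2, the 16S rRNA, changed by 0.71.

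Between both rRNA genes, however, lay the largest change of any gene. The H strand of MT-TV, the valine tRNA, held 131, 158 and 171 termini at 0.1 U and 423, 411 and 279 at 1 U although the 1 U libraries were smaller (log2 change 1.90, SE 0.17). It was followed by the tRNA genes MT-TL2 (1.75) and MT-TR (1.54), then by MT-ND6 (1.44) and the tRNA gene MT-TK (1.38). At the other end, the H strand of MT-TS1, a serine tRNA gene, was the only one not called (0.11, SE 0.16), and MT-TI, MT-ND3 and MT-TN changed by 0.57, 0.62 and 0.62. The tRNA genes thus spanned the whole range of H-strand changes. On the L strand, changes ran from -0.12 for MT-TC, -0.10 for MT-TS1 and -0.07 for MT-TL1 to 0.69 for MT-TR and 0.55 for MT-TD, of which only MT-ND4L (0.41, edgeR adjusted p = 0.020) passed the test. That call was higher in 2 of 3 pairs with overlapping groups, and turned to -0.52 with the total outside the control region and to -0.11 with DESeq2.

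**Figure D4:**
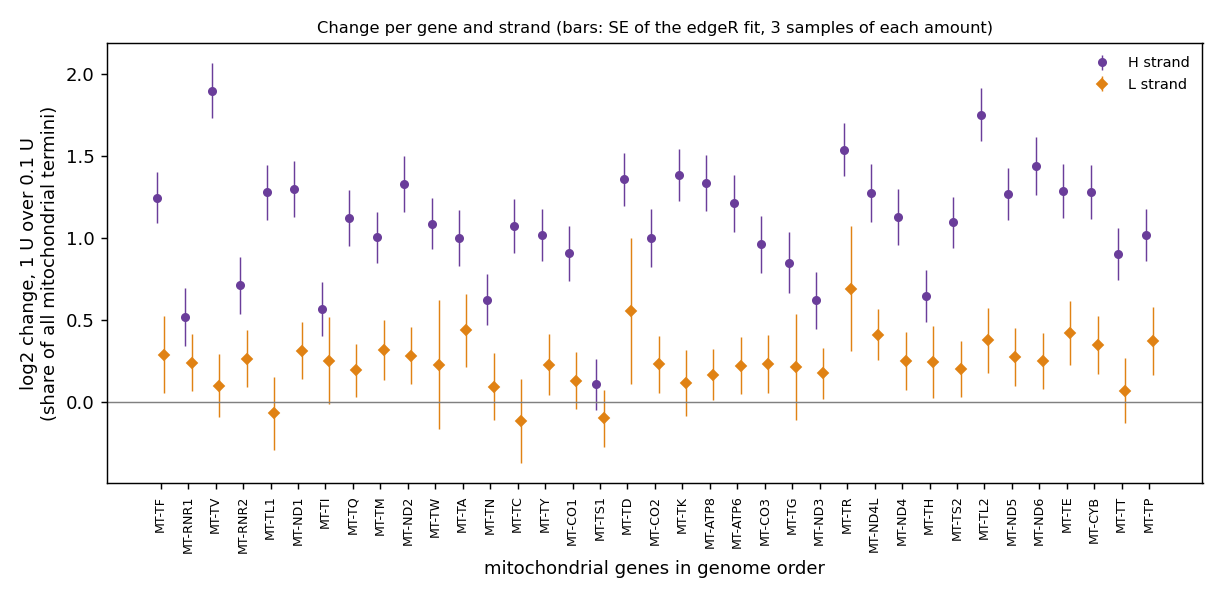
Log2 change from 0.1 U to 1 U in the share of all mitochondrial termini for each mitochondrial gene in genome order, on the H strand and the L strand, with the SE of the edgeR fit. H-strand values lie above L-strand values for every gene, from 0.11 for MT-TS1 to 1.90 for MT-TV.

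Single positions outside the control region followed the strands, with 2291 of 3026 H-strand positions and 142 of 1269 L-strand positions called higher as a share of all termini, and 698 and 3 with the total outside the control region, against 237 and 516 called lower with that total. Positions with few termini at 0.1 U, such as 2752, reached the minimum of 60 termini through the 1 U samples. Position 2752, in MT-RNR2, held 1, 5 and 4 termini at 0.1 U and 22, 36 and 19 at 1 U (log2 change 3.58, SE 0.43), and its neighbour 2753 held 6, 27 and 28 at 0.1 U and 92, 147 and 77 at 1 U. Of the 10 positions with the largest increases, 2752, 2753, 1673 and 2058 lay in MT-RNR2, 1603 and 1613 in MT-TV, 5890 in MT-TY, 12994 in MT-ND5, 14744 between genes, and 16135 on the L strand of the control region.

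In the nucleus the 2 amounts differed far less. Sites were counted in 10 feature classes as a density, the share of sites divided by the share of sequenced bases. Promoters, within 1 kb of the start of a protein-coding gene, had densities of 1.92, 1.91 and 1.84 at 0.1 U and 1.72, 1.79 and 1.76 at 1 U, a fold of 0.929 without overlap. CpG-dense 1 kb windows had 2.01, 2.01 and 1.92 at 0.1 U and 1.75, 1.83 and 1.82 at 1 U, a fold of 0.907, and 5′ UTRs a fold of 0.914, both without overlap. These classes, which share much of their sequence, were thus enriched at both amounts and less so at 1 U. Introns (0.995), intergenic sequence (1.01), coding exons (0.980), the last 1 kb around gene ends (0.979) and the megabase next to each chromosome end (0.992) differed by less than the spread between replicates. In 3′ UTRs the fold was 0.981 and the groups barely separated.

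The G-quadruplex motif was the only one of the 10 classes denser at 1 U without overlap. The motif, 4 runs of at least 3 G with loops of up to 7 bases, can fold and leave its partner strand unpaired. Its density was 2.13, 2.196 and 2.18 at 0.1 U and 2.32, 2.54 and 2.32 at 1 U, a fold of 1.10. Without 1 bin of 100 kb on chromosome 2 in which replicate 2 of 1 U stood apart, the fold was again 1.10. Within motifs, sites on the G-rich strand relative to the C-rich strand were at 0.687, 0.726 and 0.719 at 0.1 U and 0.812, 0.730 and 0.867 at 1 U, with replicate 2 of 1 U only just above the 0.1 U samples. After adjustment over the 10 classes, the exact sign-flip p was 0.5 for each of the 5 classes whose groups did not overlap.

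The local sequence at the break distinguished both amounts more clearly than the feature classes. The base that followed the terminus on the broken strand was cytosine at 25.5%, 24.5% and 24.3% of sites at 0.1 U and at 20.4%, 19.4% and 19.6% at 1 U, a fold of 0.799. It was adenine at 35.9%, 36.3% and 37.5% at 0.1 U and at 40.1%, 41.5% and 41.7% at 1 U, a fold of 1.12. Guanine there had a fold of 0.920 and thymine of 1.10. The groups did not overlap for any of the 4 bases. One base further on, cytosine again had a fold of 0.818 and thymine of 1.17. The terminal base itself was nearly the same, with cytosine at 45.8 to 46.7% at 0.1 U and 45.1 to 45.3% at 1 U. An adenine at the 3′ end cannot be told from the A tail that the assay adds, which lowers adenine at the terminal base and raises it at the next base. Its part in the difference at the next base was not tested.

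Read as steps from the terminal base to the next, the largest decrease was for C followed by G, the CpG step, which made up 3.32%, 3.29% and 3.15% of sites at 0.1 U and 2.58%, 2.42% and 2.41% at 1 U, a fold of 0.759. C followed by C had a fold of 0.779. The largest increases were for T followed by A, at 1.29, and for G followed by A, which made up 8.51%, 8.66% and 8.93% of sites at 0.1 U and 10.3%, 10.9% and 11.2% at 1 U, a fold of 1.24. The GC content of the 20 bases after the terminus was 48.1 to 48.6% at 0.1 U and 47.1 to 47.4% at 1 U, and that of the 20 bases before it 50.0 to 50.3% and 49.7 to 49.8%. The same classes that were less dense at 1 U, promoters, 5′ UTRs and CpG-dense windows, are rich in GC, and the part of base composition in their densities was not tested.

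**Figure D5:**
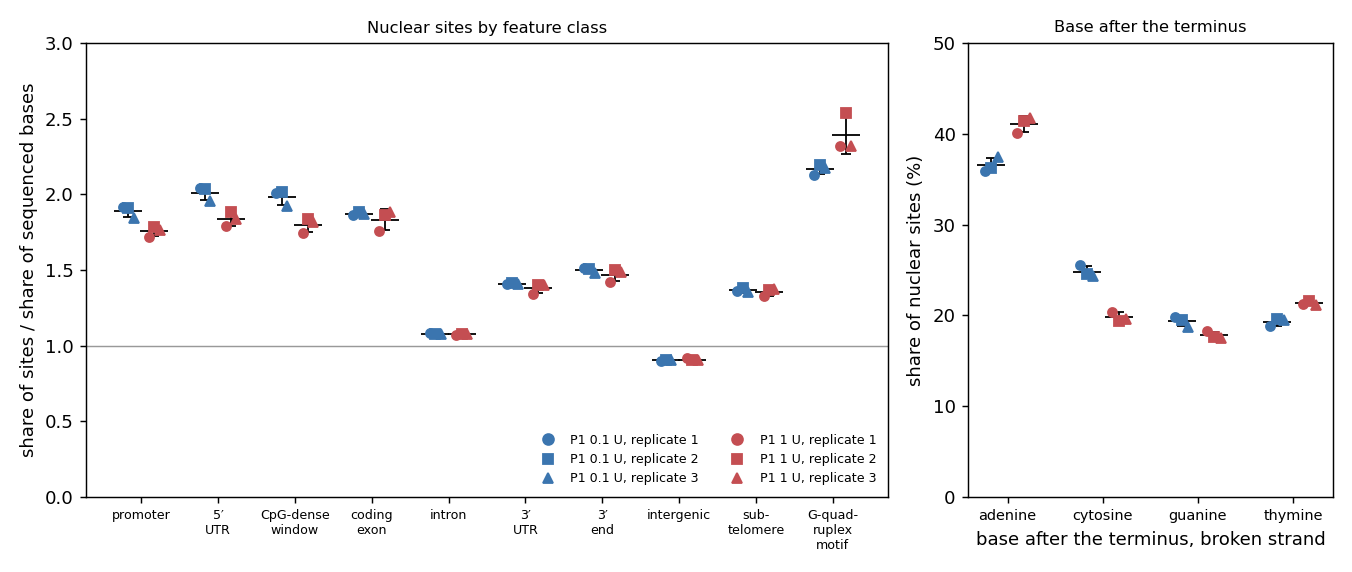
Left, density of nuclear sites in 10 feature classes (share of sites divided by share of sequenced bases, line at 1). Right, share of nuclear sites (%) by the base after the terminus. Points are samples, with the mean and SD of 3 replicates; cytosine was at 24.3 to 25.5% at 0.1 U and 19.4 to 20.4% at 1 U.

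The ratio of sites broken on the template strand of protein-coding genes to those broken on the other strand was 0.970, 0.965 and 0.966 at 0.1 U and 0.952, 0.957 and 0.939 at 1 U, a fold of 0.982 without overlap. Termini per site were 1.10, 1.12 and 1.12 at 0.1 U and 1.10 in each 1 U sample. At equal depth, 7.47%, 9.17% and 8.03% of sites at 0.1 U had another site within 10 bases on the same strand, against 7.33%, 8.22% and 7.22% at 1 U, which overlapped. For a site on the opposite strand within 10 bases the values were 1.72%, 1.70% and 1.68% at 0.1 U and 1.52%, 1.55% and 1.54% at 1 U, a fold of 0.904 without overlap.

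Few regions of the nuclear genome were called, and none with DESeq2 (39 bins and 25 gene bodies at an unadjusted p under 0.05). Of 28192 bins of 100 kb, 7 (0.0248%) passed the test on unique sites, 3 (0.0106%) higher and 4 (0.0142%) lower at 1 U. Of 16420 protein-coding gene bodies 2 (0.0122%) did, 1 (0.00609%) in each direction. The 3 largest decreases rested on 1 library. In BRAF, which encodes a RAF-family serine/threonine kinase, sites numbered 281, 253 and 1375 at 0.1 U and 235, 198 and 196 at 1 U (log2 change -1.15, edgeR adjusted p = 0.00014). The excess of replicate 3 of 0.1 U lay in the exons, with 30, 22 and 1127 exonic sites at 0.1 U and 21, 20 and 18 at 1 U, whereas the introns held 251, 231 and 248 at 0.1 U and 214, 178 and 178 at 1 U. BRAF spans the bins from 140400001 and 140500001 on chromosome 7, and the third bin, chrX:74800001-74900000, holds the pseudogene BRAFP1, whose exons had 2, 1 and 457 sites at 0.1 U and 1, 1 and 0 at 1 U. With that library left out, no gene body and 1 bin were called. The source of its exon-only sites was not tested.

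Another library carried 1 of the bins called higher. On chromosome 2 the bin chr2:33100001-33200000, which contains LINC00486, held 134, 135 and 131 sites at 0.1 U and 150, 276 and 95 at 1 U. Its log2 change on sites was 0.60, below the 0.72 of the bin chr6:141700001-141800000. In all termini the values were 149, 150 and 148 at 0.1 U and 194, 1715 and 101 at 1 U, so that replicate 2 alone carried the increase. The other gene body called, MAGEB10, a MAGE-family gene on the X chromosome, held 5, 11 and 8 sites at 0.1 U and 13, 39 and 15 at 1 U (log2 change 1.72, edgeR adjusted p = 0.038), where replicate 2 of 1 U was also the highest.

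The other 3 bins moved in every replicate without overlap, but none of them kept its call with replicate 3 of 0.1 U left out. The bin chr10:42300001-42400000, next to the centromere and rich in the satellite repeat ATTCC, had 6.64, 7.54 and 6.89 sites per 10000 at 0.1 U and 7.98, 8.59 and 7.78 at 1 U (log2 change 0.20, edgeR adjusted p = 0.0041), a call lost on all termini (0.17, edgeR adjusted p = 0.39). The bin chr6:141700001-141800000 held 58, 39 and 57 sites at 0.1 U and 90, 59 and 67 at 1 U (log2 change 0.72, edgeR adjusted p = 0.023). The bin chr7:157000001-157100000, which contains UBE3C, a ubiquitin ligase gene, held 310, 235 and 308 sites at 0.1 U and 195, 184 and 164 at 1 U (log2 change -0.41, edgeR adjusted p = 0.023).

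None of the gene lists contained a called gene. Of 85 ribosomal protein genes 56 had enough sites to be tested, with a median log2 change of -0.02. Of 64 replication-dependent histone genes, which are short and lie in clusters, 10 were tested, with a median of -0.31 and 7 below 0. All 4 globin genes tested, out of 8, were above 0, with a median of 0.29, but the annotated bodies of HBG2 and HBE1 overlap and share most of their sites. Of all genes, 8234 were above 0 and 8186 below it. The 14 long genes of common fragile sites had a median of 0.06. Over all 16420 genes the median was 0.00067. Summed over each list, sites per 10000 overlapped between both amounts for all 4 lists.

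Sequence beside centromere gaps stood out more than genes when termini rather than sites were counted. Of 28203 bins, 37 (0.131%) were called on all termini, 8 (0.0284%) higher and 29 (0.103%) lower. The largest changes in both directions rested on 1 library each. The bin chr5:128000001-128100000 held 1218, 56 and 79 termini at 0.1 U and 67, 34 and 67 at 1 U. The largest increase was in the bin chr2:33100001-33200000 described above. Among the 181 tested bins beside a centromere gap, 8 were lower and 1 higher. The bin chr1:121400001-121500000, beside such a gap, held 11071, 9809 and 10257 termini at 0.1 U and 7213, 5399 and 5452 at 1 U, a log2 change of -0.54. Over all sequence within 500 kb of a centromere gap, the density of termini was 2.65, 2.74 and 2.65 at 0.1 U and 2.51, 2.41 and 2.36 at 1 U, a fold of 0.905, while that of sites was 0.998 with overlap. Repeats of ATTCC, searched as a tandem pair of these 5 letters on either strand and covering 0.00923% of sequenced bases, had site densities of 6.87, 8.07 and 7.83 at 0.1 U and 9.05, 8.90 and 9.49 at 1 U, a fold of 1.21 in the opposite direction. Both kinds of sequence lie side by side on chromosome 10.

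Nuclear sequence that is identical to the mitochondrial genome over at least 30 bases was also denser at 1 U, with 11.9, 13.6 and 19.02 times its share of bases in termini at 0.1 U and 23.2, 25.2 and 24.5 times at 1 U, a fold of 1.67. Of the 15 bins that share most sequence with it, 3 were called higher on all termini, on chromosomes 17, 1 and 5. On unique sites 0 of them were called. The bin on chromosome 17 is also the 1 called higher beside a centromere gap. Reads from mitochondrial DNA can be placed at such copies, and the termini of mitochondrial DNA outside the control region had a fold of 1.47 per nuclear terminus. How many of these nuclear termini came from mitochondria was not tested.

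Single nuclear positions were examined last, a comparison added after the bins had been seen. Of 762 positions with at least 60 termini over the 6 samples, 23 (3.02%) were higher and 112 (14.7%) lower at 1 U, together 17.7%, with the replicate number in the fit. Same-numbered samples deviated together only weakly at these positions (correlations of 0.078, 0.047 and 0.15), and without the replicate number in the fit 2 positions were called, chr17:22254836 (lower) and chr6:10179765 (higher), so the rest are given as values. Summed over the 328 positions in sequence beside centromeres, termini numbered 35.1, 35.1 and 34.9 per 10000 nuclear termini at 0.1 U and 27.0, 25.3 and 25.2 at 1 U, a fold of 0.737 without overlap. Split by the base after the terminus, the fold was 0.567 for cytosine (58 positions), 0.569 for guanine (53 positions), 0.821 for thymine (63 positions) and 0.841 for adenine (153 positions). The groups did not overlap in any of the 4, and the order of the bases was that found over all sites. Over all 762 positions the fold was 0.835 with overlap, and the median log2 change was -0.29, against -0.40 beside centromeres. With TMM factors these medians were -0.062 and -0.17.

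The sequences around the 2 positions called without the replicate number are printed 5′ to 3′ on the broken strand of GRCh37, with the terminal base in capitals, so that the next letter is the base after the break. The position on chromosome 17, beside its centromere, held 20, 16 and 18 termini at 0.1 U and 2, 3 and 2 at 1 U. It reached the minimum of 60 termini through the 0.1 U samples. The position on chromosome 6, in an intron of the pseudogene OFCC1, held 3, 6 and 8 at 0.1 U and 25, 29 and 30 at 1 U, and it reached the minimum of 60 termini through the 1 U samples.
chr17:22254818-22254847, plus strand: gcaagtggacatttggagAgatttcaggcc
chr6:10179754-10179783, minus strand: ggcctcccaaagtgctggCaaattttttag

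The most used nuclear positions had another feature. Of the 762 positions, 261 had a run of at least 6 A followed by at least 6 T in the 41 bases up to the terminus on the broken strand, against 0.183 to 0.258% of all unique sites. The position with the most termini, chr6:99944633, held 1656, 2756 and 3497 termini at 0.1 U and 1649, 1804 and 1997 at 1 U, and its groups overlapped. Summed over the 261 positions, termini numbered 51.6, 87.4 and 90.4 per 10000 at 0.1 U and 58.8, 72.3 and 69.0 at 1 U, which overlapped. These positions therefore did not separate the amounts, in contrast to those beside centromeres. The 171 positions outside this set, beside no centromere and without ATTCC or mitochondrial sequence, had a fold of 0.810, also with overlap.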

How the data were processed

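3′-OH termini were mapped in K562 samples digested with 0.1 U or 1 U of P1, 3 samples of each. The deposited tables give, per the labels and the study's methods, counts of termini per position and strand, made by the authors from paired reads trimmed of their homopolymer tails and aligned with BWA 0.7.12 to GRCh37 (hg19). Mitochondrial counts come from an alignment to the mitochondrial genome alone and nuclear counts from an alignment to the whole genome, from which the authors removed sites with over 8 of 20 bases pointing to internal priming; no site of that kind was found in the 6 tables. The deposited mitochondrial RPM column, scaled by the authors to mitochondrial reads, was not used. SICER 1.1, which the authors used for region calls, was not needed here. Removal of duplicate reads is not given in the sources used here, so counting error understates the error of a count of termini, and unique sites were used in the nucleus. The files' plus strand is the H strand. In the nucleus the broken strand is opposite to the file strand. The mitochondrial genome of the files differs slightly in length from the reference used for gene names, so gene borders may be off by a few bases and no mitochondrial sequence is printed.

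Samples were grouped by their labelled amount of enzyme. The members, lists and comparisons were chosen with earlier results of these data known. Counts were tested with edgeR 4.0.16 (quasi-likelihood, R 4.3.3) on 200 bp mitochondrial bins, positions with at least 60 termini over the 6 samples, genes, nuclear 100 kb bins and GENCODE 44 gene bodies, with the replicate number as a block and Benjamini-Hochberg adjustment at 0.05. Mitochondrial fits used the total of mitochondrial termini and nuclear fits TMM factors, except that nuclear positions used the total of nuclear termini. Named items are the 10 (positions, nuclear bins and gene bodies) or 5 (mitochondrial bins) with the largest change in each direction among those called and changed alike in all pairs, and the mitochondrial genes with the 5 largest and 5 smallest changes on each strand. Called nuclear bins are all described, also those that did not change alike in all pairs. Other positions and windows in the text were chosen after their values were seen. Replicate numbers paired the mitochondrial bins (correlation of same-numbered deviations 0.75, 0.24 and 0.81) but not the nuclear bins (-0.015, -0.00023 and -0.0086). Where nothing says that samples came from separate cultures, p-values measure only the spread between these samples. Equal-depth values are means of 20 random draws (5 in the nucleus). On simulated data with known changes the edgeR fits recovered 83.3% of nuclear genes raised 2-fold, 81.2% of those lowered 2-fold and 46.3% of those raised 1.5-fold, all simulated mitochondrial bins changed 2-fold, and 47% of mitochondrial positions raised 2-fold and 28% of those lowered 2-fold. The simulation drew each feature independently and without a replicate effect, so these rates need not hold for the data themselves. DESeq2 1.42.0, other totals, bin widths, filters and left-out samples were tried as alternatives. Depth ran from 298951 to 692989 mitochondrial termini and from 2057216 to 2781941 unique nuclear sites per sample.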

Additional observations from a re-analysis of the deposited data

How the results depend on the processing

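Limits: 3 samples of each amount, 1 cell line, no value for the untreated samples, and single values whose exact test cannot pass 0.05. The replicate block was removed in 1 alternative for each result: without the replicate block 82 mitochondrial bins (83 with it), 59 bins for the H/L ratio (72), 2840 mitochondrial positions (2954), 7 nuclear bins (7) and 2 of 762 nuclear positions (135) were called. At nuclear positions, same-numbered samples correlated at 0.078, 0.047 and 0.15, each above its correlation with other numbers at 1 U, which is a hint from the data and not from the design. Mitochondrial 200 bp bins called numbered 131 with termini outside the control region as the total, 128 with TMM factors, 16 with nuclear termini, 115 with DESeq2 and 171 of 332 in 100 bp bins, and 70 to 154 with 1 replicate number left out. H/L calls numbered 134 of 166 in 100 bp bins, 0 on unique sites (17 at an unadjusted p under 0.05 by edgeR) and 2 to 77 with 1 replicate number left out. The number of positions caps the sites a bin can hold, and the part of this cap in the test on unique sites was not tested. Mitochondrial positions called numbered 542 with DESeq2 and 1758 with the total outside the control region. Nuclear bins called numbered 0 with DESeq2 (39 unadjusted), 37 on all termini, 1 without P1 0.1 U replicate 3, 5 without P1 1 U replicate 2 and 2 to 4 with 1 replicate number left out. Gene bodies called numbered 0 with DESeq2 (25 unadjusted), 7 on all termini, 0 without P1 0.1 U replicate 3, and 0 to 3 with 1 replicate number left out. Nuclear positions called numbered 4 with DESeq2, 81 with TMM factors and 44 to 129 with 1 replicate number left out; the alternatives for these positions and those without a single library were chosen after seeing the data. The fold of mitochondrial per nuclear termini turned from 0.774 to 1.47 outside the control region, and that of positions at equal depth from 1.17 to 0.954. With 1 replicate number left out, the intergenic fold (1.01) was lowest at 0.999 and the subtelomeric fold (0.992) ranged from 0.981 to 1.001, both on the other side of 1 without replicate 1. With the total outside the control region, H-strand log2 changes turned to -0.82 for MT-TS1, -0.41 for MT-RNR1, -0.36 for MT-TI, -0.31 for MT-ND3 and -0.30 for MT-TN, and L-strand changes to -0.86 for MT-TT, -0.84 for MT-TN, -0.52 for MT-ND4L, -0.51 for MT-TE, -0.13 for the bin from 16201 and -0.16 for the bin from 16001. With DESeq2 they turned to -0.41 for MT-TS1 and -0.00076 for MT-RNR1 on the H strand and -0.11 for MT-ND4L on the L strand, and on unique sites the H/L change of the bin from 16001 turned to 0.052. The total outside the control region leaves out the 7S cluster by its construction. For the other alternatives the cause was not tested.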

Other observations

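Of the 762 nuclear positions with many termini, 12 had most of their termini in a single library, and these libraries were of both amounts. In an intron of SLC27A6, a fatty acid transporter gene, the first position below held 1002 termini in replicate 1 of 0.1 U and 0 in each of the other 5 samples. The second, in an intron of TCF12-DT, held 315 in replicate 3 of 0.1 U, 1 in replicate 2 and 0 elsewhere. The third held 100 in replicate 3 of 1 U and 0 elsewhere. The windows of the first and second share the run gaactccag before the terminus. Whether these single-library termini came from breaks in the cells was not tested. The windows are on the broken strand of GRCh37 with the terminal base in capitals.
chr5:128051210-128051239, plus strand: gaactccagtcacactgaCcacctgtgctt
chr15:57178133-57178162, plus strand: gtctgaactccagccacaGtttagactcaa
chr6:1622186-1622215, minus strand: atttctgtgctatgagagAaattcatttgg

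Opposite-strand termini close to each other differed by their arrangement. Counted in 1 draw at equal depth as pairs per 1000000 sites, termini whose file positions on the minus strand lay 1 base before those on the plus strand numbered 563, 574 and 536 at 0.1 U and 396, 412 and 366 at 1 U, a fold of 0.701 without overlap. With the minus-strand position 1 base after, they numbered 815, 841 and 894 at 0.1 U and 836, 891 and 885 at 1 U, a fold of 1.02 with overlap. Over offsets of more than 5 bases the mean had a fold of 0.935 with overlap.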
